A study of Homo sapiens with 24 samples.

Results

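The 10 genes described here are regulators of B cell and plasma cell fate: BCL6, PAX5, BACH2, SPIB, EBF1, IRF8, SPI1, POU2AF1, PRDM1 and IRF4. They were chosen by gene name, as every probe that the array files assign to one of these symbols, which gave 14 probes of 41000 and 10 genes of 30142. Their messages were followed in diffuse large B-cell lymphoma (DLBCL) lines in which the forkhead transcription factor FOXP1 had been silenced by RNA interference. DB and K422 are lines of the germinal centre B-cell-like type (GCB-DLBCL), and HBL-1 and OCI-Ly3 are lines of the activated B-cell-like type (ABC-DLBCL). Each line was nucleofected with 1 µM of siFOXP1_308 (siFOXP1 #1), of siFOXP1_309 (siFOXP1 #2) or of a low-GC non-targeting duplex (siCtrl), and RNA was taken at 48 h. Every array carried a siFOXP1 sample in Cy3 against the siCtrl sample of the same line in Cy5, so that 4 lines, 2 siRNAs and 3 biological replicates made 24 arrays. No dyes were swapped, so a dye effect of a probe and an effect of silencing cannot be told apart. Each type was represented by 2 established lines, so a difference between ABC-DLBCL and GCB-DLBCL here is a difference between those lines. The deposited files fell into a pair of scan sessions by their software version, one with DB and OCI-Ly3 and the other with K422 and HBL-1, so each session held 1 line of each type.

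B cells in the germinal centre are held in that state by transcriptional repressors, above all BCL6 and BACH2, while PAX5 and EBF1 maintain B cell identity. Exit towards the plasma cell is carried by IRF4 and by the repressor PRDM1 (BLIMP1), which shut down BCL6 and PAX5. The ETS factors SPI1 (PU.1) and SPIB bind DNA together with IRF4 or IRF8, and POU2AF1 (OCA-B) is the coactivator of the octamer factors in B cells and is needed for germinal centres. In DLBCL the balance of the germinal centre and plasma cell regulators is part of what separates GCB-DLBCL from ABC-DLBCL.

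The message of FOXP1 was lower on 24 of 24 arrays. On the log2 scale of siFOXP1 over siCtrl it fell by 2.00 in DB and 1.96 in OCI-Ly3, the lines of one session, and by 1.74 in HBL-1 and 1.34 in K422, those of the other. The 4 B cell markers CD79A, CD79B, CD22 and MS4A1 were well above background on every array of each line. Of 5 T cell markers, 4 (CD3D, CD3E, CD3G and CD247) were also above background on every array of K422, against 1 or 2 in the other lines, and the part of this in any result below was not tested. Of the 41000 probes, 57.3% to 64.5% were well above background in at least 1 channel of an array. The number of arrays limits the precision of every value.

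The probe sequences below are shown because the readout rests on them, while no result of silencing rests on the promoter sequences that follow. The arrays carried 60-base probes. The PRDM1 probe lies in coding sequence at chr6:106661816-106661875 (hg18, plus strand), and the SPI1 probe lies in coding sequence and spans an intron, from chr11:47338165-47353816 (hg18, minus strand). The IRF8 probe at chr16:84512492-84512551 (hg18, plus strand), the POU2AF1 probe at chr11:110728214-110728273 (hg18, minus strand), the BCL6 probe at chr3:188922335-188922394 (hg18, minus strand) and the BACH2 probe at chr6:90693326-90693385 (hg18, minus strand) are given by position only. Each probe is printed 5′ to 3′ as the array files give it.
PRDM1 probe: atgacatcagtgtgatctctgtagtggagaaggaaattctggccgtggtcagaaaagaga
SPI1 probe: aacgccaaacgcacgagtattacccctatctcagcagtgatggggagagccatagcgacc

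Promoter sequences came from RefSeq (GRCh38.p14), with 250 bases before and 50 after each annotated start. The table held 11 promoters of 8 of the 10 genes, without SPI1 and POU2AF1. The forkhead motif TGTTTAC, sought on both strands, was found in 0 of the 11 promoters and in 3.42% of all 35116 promoters. Its shorter core TGTTT, which lies within that motif, was found in 5 of the 11 promoters and in 44.4% of all promoters. The 5 belonged to BCL6, BACH2, SPIB and PRDM1, the last with a core in each of its promoters. A match describes letters in this window, not a bound site. The promoters of IRF8 and PRDM1 are printed because these were the pair with the largest log2 ratios in HBL-1. The IRF8 stretch covers chr16:85902580-85902829 and that of PRDM1, upstream of the second of its annotated starts, chr6:106098691-106098940, both on the plus strand, and capitals mark the core TGTTT.
IRF8: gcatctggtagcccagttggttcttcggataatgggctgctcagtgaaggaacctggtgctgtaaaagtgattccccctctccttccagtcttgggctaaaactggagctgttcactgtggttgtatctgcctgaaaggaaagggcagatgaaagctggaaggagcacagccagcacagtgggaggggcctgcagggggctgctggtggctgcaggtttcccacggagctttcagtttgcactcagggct
PRDM1: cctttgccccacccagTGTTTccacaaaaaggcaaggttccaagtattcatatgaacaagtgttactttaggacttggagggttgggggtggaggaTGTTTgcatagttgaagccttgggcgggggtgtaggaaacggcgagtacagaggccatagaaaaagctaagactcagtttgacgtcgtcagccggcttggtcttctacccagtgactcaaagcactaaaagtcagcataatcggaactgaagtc
The IRF8 stretch held no core on either strand, and the PRDM1 stretch held it 234 and 154 bases before the start. The motif TTCCTNGAA, bound by BCL6, was present in 1.56% of all promoters and, among those of the 10 genes, only in that of BCL6 itself, 37 bases after the start.

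Before silencing is considered, the level in siCtrl cells shows where each line stood. Levels are log2 intensities of the siCtrl channel, averaged over the 2 arrays of a replicate and given as mean ± SD over 3 replicates, and they were compared only between lines for 1 probe at a time. Between the ABC-DLBCL and GCB-DLBCL lines 7 of the 10 genes differed with an adjusted p under 0.05 and by at least 1 on the log2 scale (limma with Benjamini-Hochberg adjustment over all genes), where 21.9% of all genes did. IRF4, PRDM1, SPIB and PAX5 were higher and BCL6, BACH2 and SPI1 lower in the ABC-DLBCL lines. When each line was reduced to 1 value, so that 2 lines stood against 2, limma called 0 genes of the 10 and 0 of all genes, with 3 of the 10 and 2223 of all genes past the limit of 1 at an unadjusted p under 0.05.

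**Figure D1:**
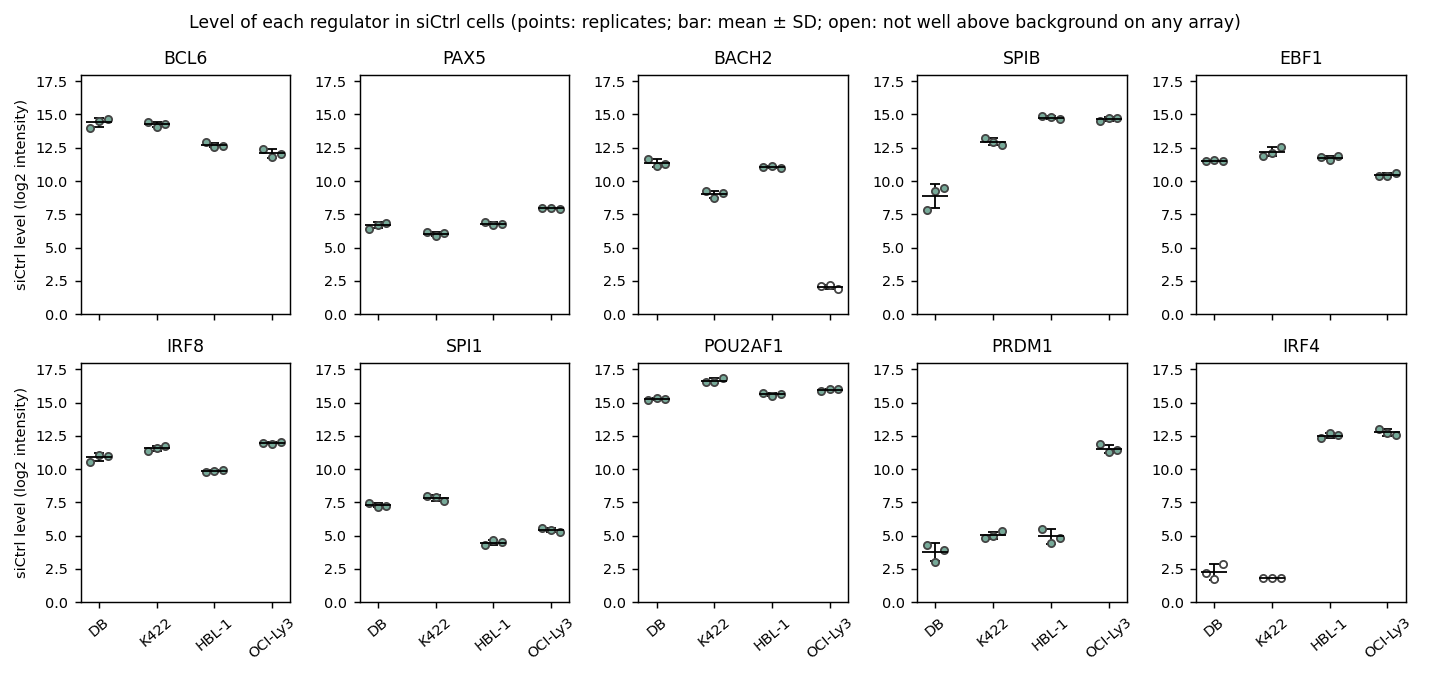
Level of each regulator in siCtrl cells, as log2 intensity (vertical axis, 1 panel per gene) in the 4 lines (horizontal axis), with the 3 replicates as points and mean ± SD as bars. Open points mark lines where no array was well above background, which were IRF4 in DB and K422 and BACH2 in OCI-Ly3.

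IRF4, a factor of both activated B cells and plasma cells, measured 12.76 ± 0.25 (SD, n = 3) in OCI-Ly3, reached 12.51 ± 0.19 in HBL-1 and was not well above background on any array of DB or K422. It was therefore at least 217.7-fold higher in HBL-1 than in DB and at least 392.8-fold higher than in K422, while OCI-Ly3 exceeded DB at least 258.5-fold and K422 at least 466.5-fold. HBL-1 and OCI-Ly3 differed by 0.25, with a 95% interval of -0.31 to 0.80. The second IRF4 probe, in coding sequence, was likewise above background on the 6 siCtrl arrays of each ABC-DLBCL line and on 0 of those of DB and K422.

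PRDM1, the repressor that drives plasma cell differentiation, was high in 1 line. Its level was 11.52 ± 0.31 in OCI-Ly3, 4.94 ± 0.53 in HBL-1, 5.03 ± 0.27 in K422 and 3.77 ± 0.66 in DB. OCI-Ly3 exceeded HBL-1 by 6.58 on the log2 scale (limma adjusted p = 1.08e-07), although these lines also differ in scan session. HBL-1 and K422 differed by -0.10, with a 95% interval of -0.87 to 0.68. In DB, which shares its scan session with OCI-Ly3, only 1 of 6 siCtrl arrays was well above background, so no difference from it is given, and in HBL-1 5 of 6 were. The higher mean of the ABC-DLBCL lines for PRDM1 thus came from OCI-Ly3.

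BCL6, the master repressor of the germinal centre, was present in every line. It measured 14.40 ± 0.35 in DB and 14.25 ± 0.21 in K422, while HBL-1 had 12.71 ± 0.16 and OCI-Ly3 12.07 ± 0.32. The replicates of the types did not overlap, with the highest of the ABC-DLBCL lines at 12.89. Within a scan session OCI-Ly3 was lower than DB by 2.32 (adjusted p = 5.27e-06) and HBL-1 was lower than K422 by 1.54 (adjusted p = 1.37e-04).

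BACH2, which delays PRDM1 induction in B cells, did not follow the lymphoma type. Its level was 11.34 ± 0.28 in DB, 11.08 ± 0.07 in HBL-1 and 9.01 ± 0.25 in K422, and OCI-Ly3 was not well above background on any array. DB, HBL-1 and K422 exceeded OCI-Ly3 at least 141.5-fold, 118.0-fold and 28.1-fold. DB and HBL-1 differed by 0.26, and the 95% interval for HBL-1 minus DB, -0.63 to 0.11, spanned both signs. OCI-Ly3, without measurable BACH2, was also the line with the high PRDM1 level.

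SPIB, an ETS factor of mature B cells, was high in both ABC-DLBCL lines, at 14.67 ± 0.14 in OCI-Ly3 and 14.76 ± 0.12 in HBL-1, against 12.95 ± 0.25 in K422 and 8.84 ± 0.90 in DB. The replicates of DB spread from 7.82 to 9.50. SPI1, the related ETS factor of B and myeloid cells, ran the other way, at 7.83 ± 0.19 in K422, 7.27 ± 0.15 in DB, 5.42 ± 0.13 in OCI-Ly3 and 4.48 ± 0.18 in HBL-1. Within the scan sessions SPI1 was lower in OCI-Ly3 than in DB by 1.85 (limma adjusted p = 1.27e-06) and lower in HBL-1 than in K422 by 3.35 (adjusted p = 1.33e-08), while SPIB was higher by 5.83 (adjusted p = 2.09e-07) and 1.81 (adjusted p = 0.00161).

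IRF8, a partner of SPI1 in the germinal centre, was lowest in HBL-1, at 9.84 ± 0.09, and reached 10.88 ± 0.30 in DB, 11.57 ± 0.20 in K422 and 11.96 ± 0.08 in OCI-Ly3. OCI-Ly3 and K422 differed by 0.39, which did not pass the test (adjusted p = 0.0617). PAX5, the factor of B cell commitment, measured 7.95 ± 0.05 in OCI-Ly3, then 6.78 ± 0.11 in HBL-1 and 6.66 ± 0.22 in DB, with K422 lowest at 6.03 ± 0.16. DB and HBL-1 were not separated for PAX5 (difference 0.13, 95% interval -0.17 to 0.42). The dimmer PAX5 probe gave the same order with DB and HBL-1 as the middle pair, and under the second background correction the ABC-DLBCL excess of PAX5 was 0.56 instead of 1.02.

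EBF1, a pioneer factor of the B lineage, was lowest in OCI-Ly3, at 10.44 ± 0.13, against 11.52 ± 0.03 in DB, 11.76 ± 0.13 in HBL-1 and 12.19 ± 0.35 in K422. POU2AF1 had a level of 16.65 ± 0.19 in K422, 15.96 ± 0.05 in OCI-Ly3, 15.62 ± 0.10 in HBL-1 and 15.26 ± 0.07 in DB. Its probe was among the brightest on the array and was saturated on 0 arrays.

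The response to silencing was then read as log2 of siFOXP1 over siCtrl. A gene was called where the adjusted p was under 0.05 and the log2 ratio of the line, the mean over both siRNAs, was at least 0.5 in size. HBL-1 had 4 of the 10 genes called, IRF8, PRDM1, SPIB and SPI1, all higher, where 5.73% of all genes were called higher and 9.91% in either direction. DB had 1, POU2AF1, where 1.33% of all genes were called higher and 2.18% in either direction. K422 had 1, BACH2, against 2.34% of all genes higher and 4.44% in either direction. In OCI-Ly3 the only call was BACH2, against 2.80% of all genes higher and 4.42% in either direction, and neither channel of that probe was well above background on any array of the line, so the call rests on no measured level. No gene of the 10 was called lower by limma in any line, where 0.843% of all genes were in DB, 4.18% in HBL-1, 2.10% in K422 and 1.62% in OCI-Ly3. A negative ratio at an unadjusted p under 0.05 was seen for 1 measured pair of gene and line, without a share of all genes at that threshold. With the 2 arrays of a replicate averaged to 1 value, the calls numbered 1 in DB, 4 in HBL-1, 1 in K422 and 1 in OCI-Ly3, for the same genes. Unless a block is named, p-values given for the log2 ratio of a line take its 6 arrays as independent.

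**Figure D2:**
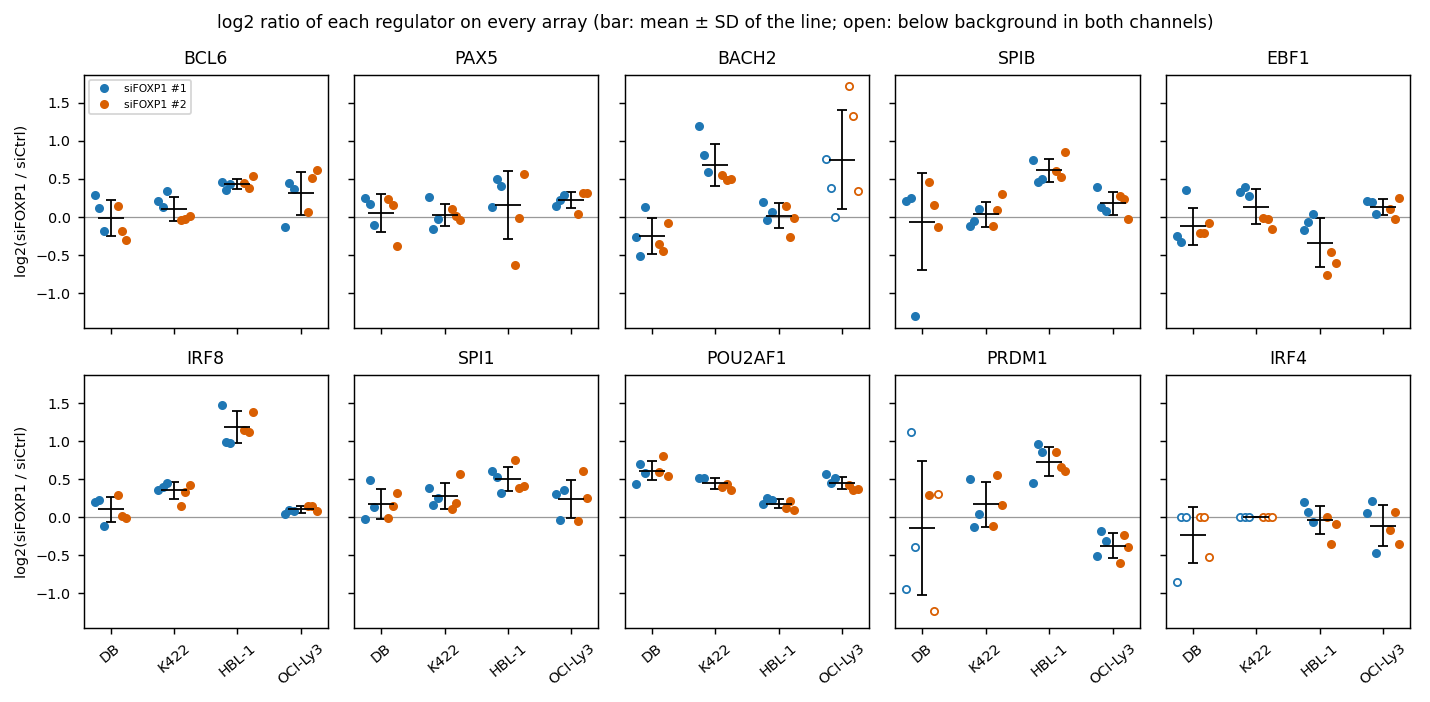
The log2 ratio of siFOXP1 over siCtrl (vertical axis) of each regulator on every array, by line (horizontal axis), coloured by siRNA, with mean ± SD of the line as bars and open points where both channels were below background. All 6 arrays of HBL-1 lie above 0 for IRF8, PRDM1, SPIB, SPI1 and BCL6, and the 6 arrays of OCI-Ly3 lie below 0 for PRDM1.

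In 37 of the 40 pairs of gene and line at least 1 channel was above background on at least 1 array, and 14 of these 37 had an adjusted p under 0.05, of which 13 were higher after silencing. HBL-1 held 7 of them, K422 held 4, OCI-Ly3 held 2 and DB held 1. The share of all genes with an adjusted p under 0.05 in either direction was 31.1% in HBL-1 (16.2% higher), 19.4% in K422 (9.81% higher), 18.8% in OCI-Ly3 (9.64% higher) and 12.1% in DB (6.17% higher). The exception was EBF1 in HBL-1. The median log2 ratio of the 10 genes, with pairs below background included, was 0.31 in HBL-1, 0.20 in OCI-Ly3, 0.15 in K422 and -0.04 in DB. Over the measured pairs alone it was 0.31 in HBL-1, 0.18 in OCI-Ly3, 0.17 in K422 and -0.02 in DB. The median of all genes was 0.

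IRF8 had the largest measured change. In HBL-1 it measured 1.48, 0.99 and 0.97 with siFOXP1 #1 and 1.15, 1.13 and 1.39 with siFOXP1 #2. All 6 values lay well above those of the other lines, and the mean of 1.19 ± 0.21 (SD, n = 6 arrays) is a 2.27-fold increase (limma adjusted p = 5.06e-10). In K422 the 6 arrays lay between 0.15 and 0.45, with a mean of 0.36 ± 0.11 (adjusted p = 6.26e-04), under the limit of 0.5. The means were 0.10 ± 0.16 in DB (adjusted p = 0.36) and 0.10 ± 0.04 in OCI-Ly3 (adjusted p = 0.296), although all 6 arrays of OCI-Ly3 were above 0. HBL-1, where IRF8 rose most, was also the line with its lowest siCtrl level.

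PRDM1 was higher on every array of HBL-1 and lower on every array of OCI-Ly3, and only the rise passed the test. In HBL-1 the values were 0.46, 0.97 and 0.85 with siFOXP1 #1 and 0.86, 0.66 and 0.60 with siFOXP1 #2, a mean of 0.73 ± 0.19 (adjusted p = 0.0119). In OCI-Ly3, the line with the high PRDM1 level, they were -0.51, -0.18 and -0.31 with siFOXP1 #1 and -0.60, -0.23 and -0.40 with siFOXP1 #2, a mean of -0.37 ± 0.16 with an adjusted p of 0.26. K422 gave 0.17 ± 0.30 and DB -0.14 ± 0.88, with both lines spread across 0. The spread of PRDM1 in DB, where its probe was near background, entered the pooled error of the fit. The HBL-1 probe was dim too. Its mean there was 0.18 under the second background correction, normexp with loess, and its adjusted p was 0.0527, 0.0726 and 0.067 without HBL-1 replicate 1, 2 or 3. With the replicate number as a random block it was 0.0504, which ends the call. In OCI-Ly3, where the probe was bright, the PRDM1 mean ran from -0.49 to -0.28 over 28 settings of the processing. It was below 0 in all 28 and called in none.

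SPIB rose in HBL-1, with values of 0.75, 0.47 and 0.50 for siFOXP1 #1 and 0.60, 0.53 and 0.85 for siFOXP1 #2. The mean was 0.62 ± 0.15 (adjusted p = 0.00256), and the second SPIB probe, nearer the start of the transcript, gave 0.66 ± 0.18 (adjusted p = 4.9e-05 over all probes). In OCI-Ly3 the first probe gave 0.18 ± 0.15 (adjusted p = 0.444) and the second 0.46 ± 0.12 (adjusted p = 0.00288), so the probes placed this line differently against the test. In K422 the mean was 0.03 ± 0.16. In DB 1 array, siFOXP1 #1 replicate 3, stood at -1.30 while the other 5 lay between -0.14 and 0.46. The size of the rise depended on the correction for intensity. In HBL-1 the first probe measured 0.57 with normexp and loess but 0.13 with normexp and median centring. Under median centring it measured -0.22 in K422, -0.05 in OCI-Ly3 and -0.14 in DB.

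SPI1 was higher on all 6 arrays of HBL-1, at 0.61, 0.54 and 0.32 with siFOXP1 #1 and 0.76, 0.39 and 0.41 with siFOXP1 #2. Its mean of 0.50 ± 0.16 (adjusted p = 2.18e-04) lay at the limit, from a low level at which 5 of 6 siCtrl arrays were well above background, and the second background correction gave 0.09. In K422 all 6 arrays were above 0 as well, with 0.28 ± 0.17 (adjusted p = 0.0319). OCI-Ly3 at 0.24 ± 0.25 (adjusted p = 0.0662) and DB at 0.18 ± 0.20 (adjusted p = 0.236) did not pass. Without HBL-1 replicate 1 the calls in that line were 2, SPIB and IRF8, since SPI1 measured 0.41 and PRDM1 missed the threshold.

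POU2AF1 passed the adjusted threshold in all 4 lines. Its values in DB were 0.44, 0.70 and 0.58 with siFOXP1 #1 and 0.60, 0.80 and 0.55 with siFOXP1 #2. The mean in DB was 0.61 ± 0.13 (adjusted p = 3.19e-08). OCI-Ly3 gave 0.45 ± 0.08 (adjusted p = 3.77e-07), K422 gave 0.46 over the 5 arrays left after 1 spot marked as an outlier was dropped (SD 0.07, adjusted p = 9.65e-07), and HBL-1 gave 0.18 ± 0.06 (adjusted p = 7.16e-04). It was higher on 23 of 23 arrays with a value, and 3.07% of the 13258 genes above background in both channels on all arrays were higher on every array. Among the 603 brightest genes, the top 2% by mean siCtrl level, 1 gene rose by as much as POU2AF1 in DB, 3 in OCI-Ly3, 19 in K422 and 156 in HBL-1, each count including POU2AF1 itself. The direction depended on the correction for intensity, since with median centring alone POU2AF1 measured 0.24 in DB, 0.04 in OCI-Ly3, -0.17 in K422 and -0.39 in HBL-1.

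BACH2 rose in K422, where siFOXP1 #1 gave 1.19, 0.81 and 0.59 and siFOXP1 #2 gave 0.55, 0.48 and 0.51. The mean was 0.69 ± 0.27 (adjusted p = 0.00145), and for siFOXP1 #2 alone it was 0.51 (adjusted p = 0.125). In DB 5 of 6 arrays were below 0, with a mean of -0.25 ± 0.24 (adjusted p = 0.283). HBL-1, with a BACH2 level close to that of DB, gave 0.02 ± 0.16. The arrays of OCI-Ly3 spread from 0 to 1.72 with both channels below background, so no ratio is given for that line.

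BCL6 was higher on all 6 arrays of HBL-1, between 0.35 and 0.54, and on 5 of 6 in OCI-Ly3. The mean of HBL-1 was 0.44 ± 0.06 (adjusted p = 3.34e-04) and that of OCI-Ly3 0.31 ± 0.28 (adjusted p = 0.00981), both under the limit of 0.5. With normexp and loess HBL-1 reached 0.53. In the GCB-DLBCL lines, where BCL6 was more abundant, the means were -0.02 ± 0.24 in DB and 0.10 ± 0.15 in K422.

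EBF1 was the 1 gene of the 10 with a decrease that passed the adjusted threshold, and its probes did not give the same picture. In HBL-1 the brighter probe measured -0.17, -0.07 and 0.04 with siFOXP1 #1 and -0.76, -0.47 and -0.60 with siFOXP1 #2. The sets for the siRNAs did not overlap. The mean was -0.34 ± 0.32 (adjusted p = 6.21e-04), while the second EBF1 probe, nearer the coding sequence, gave 0.12 ± 0.23 (adjusted p = 0.19). The other lines were at -0.12 ± 0.24 in DB, 0.13 ± 0.23 in K422 and 0.13 ± 0.10 in OCI-Ly3, none past the test.

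PAX5 and IRF4 were not called in any line. PAX5 gave 0.22 ± 0.11 in OCI-Ly3 with 6 of 6 arrays above 0 (adjusted p = 0.194) and 0.16 ± 0.45 in HBL-1, where the arrays spread from -0.63 to 0.57. The dimmer PAX5 probe gave 0.10 ± 0.14 in OCI-Ly3, 0.03 ± 0.19 in HBL-1 and 0.11 ± 0.36 in DB. In K422 it gave -0.31 ± 0.49 (limma adjusted p = 0.133 over all probes), against 0.03 ± 0.14 for the brighter probe. IRF4 in the lines that express it gave -0.04 ± 0.19 in HBL-1 (95% interval -0.26 to 0.18) and -0.11 ± 0.26 in OCI-Ly3 (95% interval -0.33 to 0.11). A change in the mean of 0.5 or more lay outside both intervals of this probe. The second IRF4 probe gave -0.19 ± 0.18 in HBL-1 (95% interval -0.502 to 0.126) and 0.09 ± 0.07 in OCI-Ly3 (95% interval -0.219 to 0.409). Its interval in HBL-1 thus reached a decrease of 0.5.

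The siRNAs can be set beside each other on the same genes, bearing in mind that the knockdown was deeper with siFOXP1 #2. In HBL-1 FOXP1 measured -1.29 with siFOXP1 #1 and -2.19 with siFOXP1 #2, and in K422 -0.91 and -1.76. Most labels name the siCtrl channel by the siFOXP1 siRNA it was paired with, some in DB give no such name, and the sources used here do not say whether 1 siCtrl culture served both siRNAs of a replicate, so likeness between the siRNAs is not given as a result. The test of the difference between siRNAs called 0 of 40 pairs, beside shares of all genes of 0.305% (DB), 0.192% (OCI-Ly3), 0.179% (HBL-1) and 0.159% (K422). An unadjusted p under 0.05 (limma) was reached by 3 pairs, without a share of all genes at that threshold. The largest measured difference was EBF1 in HBL-1, lower by 0.54 with siFOXP1 #2 (unadjusted p from limma = 7.02e-04, adjusted p = 0.138). With the replicate number as a random block limma called 1 pair, EBF1 in HBL-1, and with a fixed block 0. IRF8 in HBL-1 differed by 0.07, with a 95% interval of -0.19 to 0.34.

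**Figure D3:**
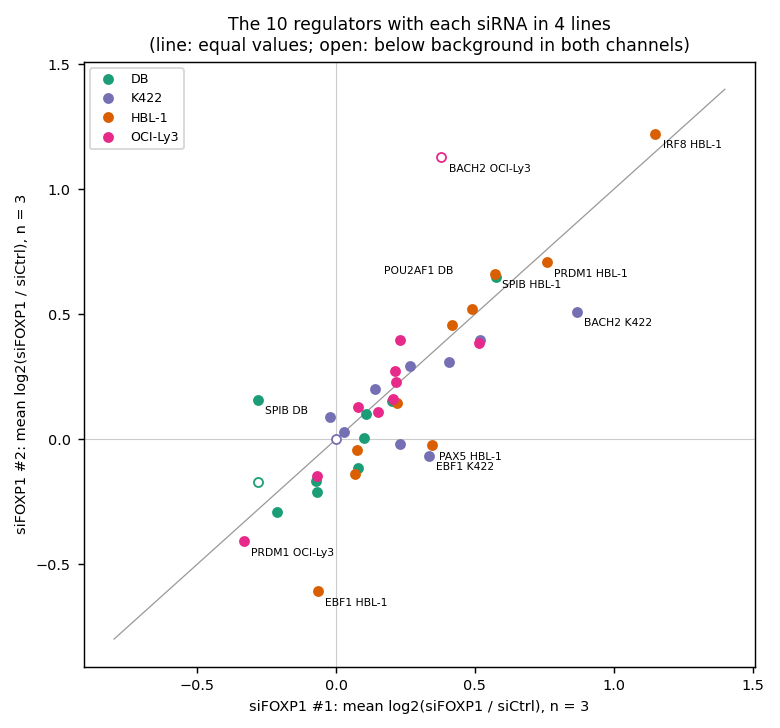
Mean log2 ratio with siFOXP1 #1 (horizontal axis) against siFOXP1 #2 (vertical axis), each over 3 arrays, for the 10 regulators in the 4 lines; the diagonal marks equal values. IRF8 in HBL-1 lies near the diagonal at 1.15 and 1.22, while EBF1 in HBL-1 lies off it at -0.07 and -0.61, and whether both siRNAs shared siCtrl cultures is not given.

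To ask whether the response differed between ABC-DLBCL and GCB-DLBCL, the mean log2 ratio of HBL-1 and OCI-Ly3 was compared with that of DB and K422. By limma 0 of the 10 genes were called, where 2.26% of all genes were. An unadjusted p under 0.05 was reached by 4 of the 10, a threshold for which no share of all genes is given. These counts rest on the brightest probe of a gene, and the second SPIB probe was called, at 0.51 (adjusted p = 0.00312 over all probes), against 0.41 for the first (adjusted p = 0.0896 over all probes). Without DB replicate 1 the count was 1, SPIB, at 0.51. Those with an adjusted p under 0.05 but a difference under 0.5 were IRF8, at 0.42 (adjusted p = 4.35e-04), BCL6, at 0.33 (adjusted p = 0.0143), and POU2AF1, at -0.22 (adjusted p = 0.00115), beside 8.29% of all genes. When each line was 1 value, limma called 0 of the 10 genes and 0 of all genes, with 0 of the 10 and 524 of all genes past the limit of 0.5 at an unadjusted p under 0.05.

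The scan sessions allow each ABC-DLBCL line to be compared with the GCB-DLBCL line of its own session. BCL6 gave the same difference in both, 0.33 for OCI-Ly3 minus DB (95% interval 0.09 to 0.57) and 0.33 for HBL-1 minus K422 (0.09 to 0.57), and neither passed the adjusted threshold (0.153 and 0.0742). POU2AF1 was lower in the ABC-DLBCL line of both, by -0.16 (adjusted p = 0.113) and -0.28 (adjusted p = 0.00316). IRF8 differed by 0.00 between OCI-Ly3 and DB (95% interval -0.19 to 0.19) and by 0.83 between HBL-1 and K422 (0.64 to 1.02, adjusted p = 1.02e-05). The difference of IRF8 between the types thus came from HBL-1.

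HBL-1 minus K422 called 2 genes, IRF8 higher and BACH2 lower, at -0.67 (adjusted p = 0.0326), where 4.34% of all genes were called in either direction. SPIB, at 0.58 (adjusted p = 0.0797), and PRDM1, at 0.56 (adjusted p = 0.294), did not pass. The second SPIB probe had an adjusted p under 0.05, at 0.49 (adjusted p = 0.0328 over all probes), so the probes of SPIB lay on either side of the threshold. For EBF1 the brighter probe gave -0.47 (adjusted p = 0.00332) and the second -0.07 (adjusted p = 0.751 over all probes), so the difference was seen with 1 probe of 2. OCI-Ly3 minus DB called 1 gene, BACH2, where 1.42% of all genes were called, and that value involves the unmeasured level in OCI-Ly3.

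**Figure D4:**
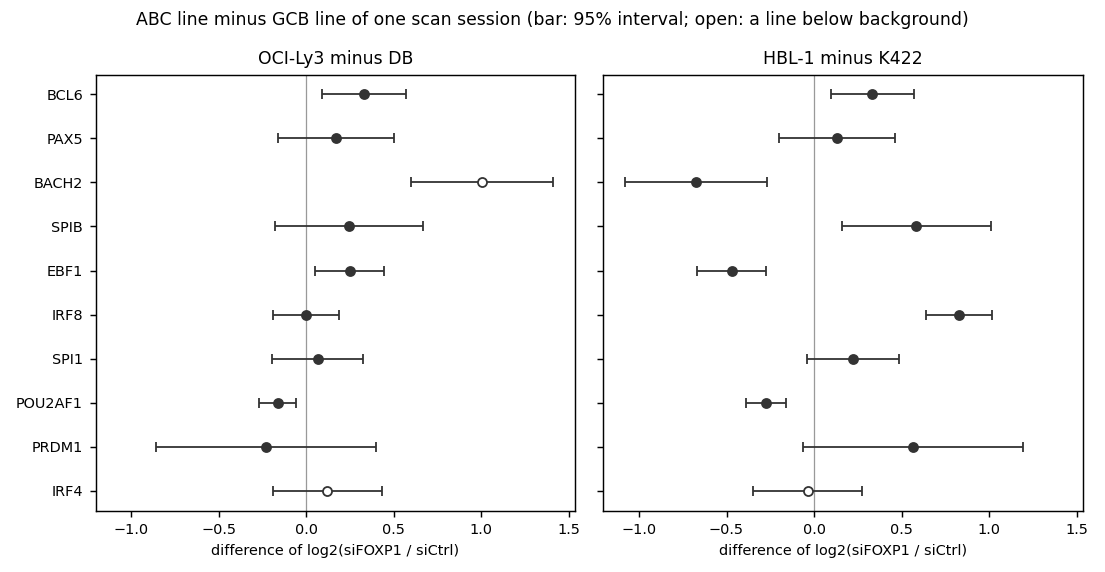
Difference of the log2 ratio (horizontal axis) between the ABC-DLBCL and the GCB-DLBCL line of the same scan session for each regulator (rows), with 95% intervals from limma and open points where a line was below background. BCL6 stands at 0.33 in both panels, whereas IRF8 stands at 0.00 for OCI-Ly3 minus DB and at 0.83 for HBL-1 minus K422.

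Genes that these regulators control or that mark their stages were read from 5 lists. Among 12 germinal centre genes 5 were called higher in HBL-1, 4 in K422, 1 in OCI-Ly3 and 0 in DB, and 0 were called lower. The median log2 ratio of the list was 0.07, 0.34, 0.17 and 0.06 in that order, against 0 over all genes. For these and the following lists, the share of all genes called higher was 5.73% (HBL-1), 2.34% (K422), 2.80% (OCI-Ly3) and 1.33% (DB), and the share called lower 4.18%, 2.10%, 1.62% and 0.843%. Some genes named from the lists also passed the adjusted threshold in further lines, with ratios under 0.5. S1PR2, a receptor that confines B cells to the germinal centre, rose by 0.77 ± 0.18 in K422 and 0.54 ± 0.49 in HBL-1. It also passed that threshold in DB at 0.45 ± 0.21 and in OCI-Ly3 at 0.42 ± 0.11. In HBL-1 S1PR2 was above 0 on 5 of 6 arrays, and limma called it higher with siFOXP1 #2 than with siFOXP1 #1. RGS13, a regulator of chemokine receptor signalling, rose by 1.32 ± 0.27 and ELL3, an elongation factor of B cells, by 0.86 ± 0.17, both in HBL-1.

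Among 18 plasma cell genes none was called in DB, 2 were higher and 1 lower in K422, 4 were higher in HBL-1 and 2 were lower in OCI-Ly3. The medians were 0.10 in HBL-1, 0.01 in K422, -0.02 in DB and -0.03 in OCI-Ly3. IGJ, the joining chain of polymeric immunoglobulin, rose by 3.33 ± 0.53 in HBL-1 (limma adjusted p = 6.24e-12) and 0.94 ± 0.20 in K422 (adjusted p = 3.51e-05). It measured 0.44 ± 0.56 in DB (adjusted p = 0.022) and 0.40 ± 0.43 in OCI-Ly3 (adjusted p = 0.0283), both under the limit of 0.5. MGC29506 (MZB1), a chaperone of immunoglobulin assembly, rose by 0.70 ± 0.27 in HBL-1 and 0.61 ± 0.18 in K422. CD27 rose by 1.33 ± 0.49 and CD38 by 0.96 ± 0.43 in HBL-1. The genes lower in OCI-Ly3 were FKBP11 and EDEM1, both of the endoplasmic reticulum.

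Among 15 targets of PAX5 and of B cell identity 5 were called higher in HBL-1, 2 in OCI-Ly3 and 0 in DB or K422, and 0 were called lower. The medians of the ABC-DLBCL lines were 0.34 (HBL-1) and 0.25 (OCI-Ly3) and those of the GCB-DLBCL lines 0.05 (DB) and 0.00 (K422). In HBL-1 LY9, a receptor of the SLAM family, rose by 1.46 ± 0.52, CD22, an inhibitory coreceptor, by 0.89 ± 0.15, and CD79B, a signalling chain of the B cell receptor, by 0.59 ± 0.11. MS4A1 (CD20) rose by 0.64 ± 0.06 in OCI-Ly3 and measured 0.35 ± 0.11 in HBL-1. PAX5 itself passed no test in these lines.

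The 18 genes known to be repressed by BCL6 moved both ways. In DB 2 were lower, in K422 2 were higher and 2 lower, in HBL-1 4 were higher and 2 lower, and in OCI-Ly3 1 was higher and 1 lower, with medians of -0.10, -0.09, 0.03 and -0.03. CXCR4, a chemokine receptor, rose by 2.43 ± 0.87 in HBL-1 and 1.16 ± 0.61 in K422, and BCL2L1, a survival factor, by 0.87 ± 0.20 and 0.58 ± 0.17. BCL2L1 also passed the adjusted threshold in OCI-Ly3 at 0.47 ± 0.15 and in DB at 0.32 ± 0.17, under the limit of 0.5. CCND2, a D-type cyclin, had log2 ratios of -0.99 ± 0.31 (HBL-1) and -0.60 ± 0.24 (OCI-Ly3). CD44, an adhesion receptor, was at -0.61 ± 0.41 in DB, and its call in K422 came from a probe above background in 1 channel of 1 array.

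Among 24 further B cell transcription factors 1 was higher in DB, 2 were higher and 2 lower in K422, 4 were higher and 1 lower in HBL-1, and 1 was higher in OCI-Ly3. The medians were -0.02, 0.22, 0.16 and 0.05. POU2F2 (OCT2), the octamer factor that POU2AF1 assists, rose by 0.56 ± 0.50 in DB and 0.50 ± 0.16 in HBL-1 and measured 0.44 ± 0.18 in K422 and 0.43 ± 0.06 in OCI-Ly3. MYBL1, a germinal centre member of the MYB family, rose by 1.12 ± 0.05 in K422. KLF2, a regulator of lymphocyte trafficking, was at -0.80 ± 0.16 in K422 and -0.85 ± 0.34 in HBL-1 but at 0.60 ± 0.43 in OCI-Ly3. ZBTB20, a relative of BCL6, was called in K422 and HBL-1 at or near background, in K422 on 1 array.

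**Figure D5:**
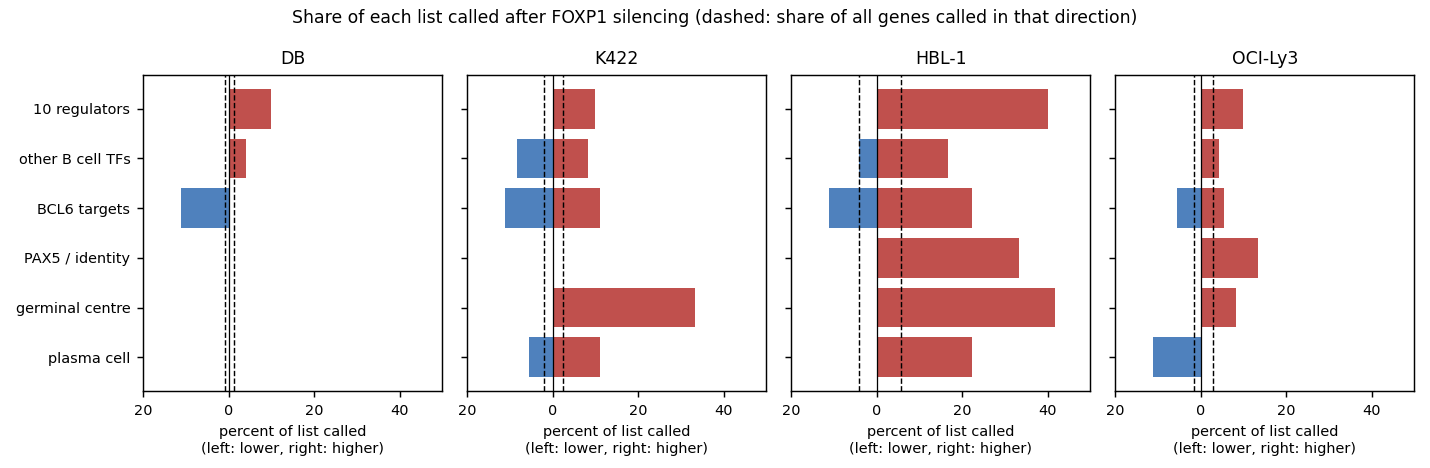
Share of each gene list called after silencing (horizontal axis, percent, lower to the left and higher to the right) in the 4 lines, with dashed lines at the share of all genes called in the same direction. The bars for the regulators, germinal centre and plasma cell genes point to the right in HBL-1, where 4 of 10, 5 of 12 and 4 of 18 genes were called higher.

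The genes whose log2 ratio ran most like that of a regulator were found by Pearson's r over the 24 arrays among 17169 genes. The arrays share 4 lines, so these values describe the line pattern and carry no test. IRF8 ran with MMD (r = 0.95) and IGJ (r = 0.94), SPIB with DHCR7 (r = 0.94) and APEX2 (r = 0.90), and POU2AF1 with LOC100130886 (r = 0.93) and TG (r = 0.91). BCL6 was matched by CCM2 (r = 0.83) and BLNK (r = 0.79) and EBF1 by LACTB (r = 0.83) and DOLPP1 (r = 0.83). The closest genes of SPI1 and PAX5 reached 0.78 and 0.76. No match is given for BACH2, PRDM1 and IRF4, whose probes were below background on all or most arrays of at least 1 line. Among the regulators themselves the most negative pair was IRF8 and POU2AF1, at -0.82 over 23 arrays, and the most positive was IRF8 and SPIB, at 0.69.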

How the data were processed

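Two-colour Agilent whole-genome arrays (design 014850) held 45015 spots each. The deposited Feature Extraction files (versions 10.5.1.1 and 10.7.3.1) gave, per the file headers, background-subtracted and dye-normalized intensity per channel (linear and loess) and the log10 ratio of the red (Cy5) to the green (Cy3) channel. The log10 ratio was turned to log2 of siFOXP1 over siCtrl. No further centring was applied, and the median of each array was 0. The authors' series matrix, in log2 units, served as an alternative. It correlated with these values at r = 0.804 to 0.998, its medians ran from -0.173 to 0.0669, and how it was centred stays unknown. Control spots (1639) and outlier spots (113 to 469 per array) were left out, and the brightest probe stood for a gene.

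Ratios were fitted with limma 3.58.1 (R 4.3.3) as 8 means of line and siRNA over 24 arrays, a line being the mean of its 2 siRNAs. siCtrl levels were fitted over 12 values, after quantile adjustment of the average channel signal between arrays. p-values were Benjamini-Hochberg adjusted over 30142 genes. A call required a log2 difference of 0.5 (1 for levels) besides an adjusted p under 0.05. "At least" folds used the lowest signal well above background. On simulated data of 29747 genes, 72% to 78% of changes of 0.7 and 95% to 96% of changes of 1.5 were recovered. The simulated noise was independent between arrays and few genes were changed, unlike in these data, so the rates may not carry over. Named genes were the 10 members, FOXP1, up to 4 genes per list (called in most lines) and the 2 genes most like each member (left out, after the values were seen, for 3 members below background in a line); 2 called genes of OCI-Ly3 (FKBP11 and EDEM1) were named after their values were seen. The members and lists were chosen with earlier results of these data known. Alternatives covered background, scaling, filter, blocks, each replicate, each siRNA and each line alone. Values of 2 genes of these lists are not reported here.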

Additional observations from a re-analysis of the deposited data

Results flagged for a closer look

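Among 39 sets of 6 arrays, 2 held an array far from the others, and chance flags about 1 in 20 such sets, here 1.95. Both were on the DB array of siFOXP1 #1 replicate 3, where SPIB measured -1.30 while the other 5 arrays lay between -0.14 and 0.46, and EBF1 measured 0.35 while the others lay between -0.33 and -0.08. The log2 ratios of all probes on this array had an SD of 0.56, against 0.39 to 0.44 on the other DB arrays. An HBL-1 array also reached 0.56. Without this DB array, a choice made after seeing the data, DB had 1 call, POU2AF1, as with it.

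Some responses differed between lines. The mean log2 ratio of the ABC-DLBCL lines minus that of the GCB-DLBCL lines had an adjusted p under 0.05 (limma) for IRF8 at 0.42, BCL6 at 0.33 and POU2AF1 at -0.22. For HBL-1 minus K422 it did for IRF8 at 0.83, BACH2 at -0.67, EBF1 at -0.47 and POU2AF1 at -0.28. The second EBF1 probe gave -0.07 for that difference (limma adjusted p = 0.751 over all probes). PRDM1 was above 0 on every array of HBL-1 and below 0 on every array of OCI-Ly3. The difference of the PRDM1 means, OCI-Ly3 minus HBL-1, was -1.10, which was not tested, and these lines were scanned in different sessions.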

How the results depend on the processing

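The count of the 10 genes called in HBL-1 was 4 or 3 under every alternative except these: 2 with normexp and median centring (EBF1 lower, IRF8 higher), 1 with a log2 limit of 1 (IRF8), 1 with siFOXP1 #1 alone (IRF8) and 2 without HBL-1 replicate 1. Leaving out each replicate gave 2 to 4. IRF8 in HBL-1 was called under every alternative run for it. The other genes behind the count did not stay the same. Of 28 settings, the call in HBL-1 changed in 9 for PRDM1, 5 for SPI1, 3 for SPIB, 2 for EBF1 and 1 for BCL6. With normexp and loess SPI1 measured 0.09 and PRDM1 0.18 in HBL-1, while BCL6 reached 0.53. In DB the count of 1 became 0 with normexp and median centring and with a log2 limit of 1. In K422 the count of 1 became 0 under the same pair of settings and with siFOXP1 #2 alone, and 2 with siFOXP1 #1 alone (BACH2 and POU2AF1). In OCI-Ly3 the count of 1, BACH2 below background, became 0 with normexp and loess, with normexp and median centring, with a log2 limit of 1, with the line fitted alone, with the methods' t-test after Benjamini-Hochberg adjustment, and, as a choice made after seeing the data, when a channel had to be well above background on at least 3 arrays of the line. With siFOXP1 #1 alone the 1 call of OCI-Ly3 was POU2AF1 in place of BACH2. The difference between the types stood at 0 calls, and at 0 to 1 when a replicate was left out (SPIB without DB replicate 1). With 4 line means the siCtrl levels gave 0 calls instead of 7. The cause of these changes was not tested, except that fewer or stricter values enter by construction under a higher limit, a single siRNA and line means.

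Whether replicate numbers pair the arrays was not settled. Arrays of a line with the same number correlated at 0.05 to 0.28 over all genes, with 6 of 12 pairs over 0.1, and at 0.11 to 0.57 over genes for which both channels exceeded background on most arrays, with 12 of 12 over 0.1, and each correlated best with its own number in 12 of 12. With the replicate number as a block, the calls were 1 in DB and K422, 3 in HBL-1 (without PRDM1, adjusted p = 0.0504), 1 in OCI-Ly3 and 0 between the types, and the difference between siRNAs was called for 1 pair, EBF1 in HBL-1. That difference gave 0 to 1 calls with each replicate left out (1 without DB replicate 3), and 1 without the single DB array of siFOXP1 #1 replicate 3. Over all genes the calls by line (DB, K422, HBL-1, then OCI-Ly3) were 656, 1337, 2987 and 1331, against 80, 255, 978 and 307 with normexp and loess, 48, 479, 2027 and 265 with normexp and median centring, and 97, 852, 2577 and 926 with each line alone, while the replicate block called 752 differences between siRNAs instead of 252.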
